A study of Mus musculus with 16 samples.

Results

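Krt5, Krt14, Krt15, Trp63, Shh, Krt13, Krt7, Krt19, Krt8 and Krt18 were followed in the mouse bladder with age. These 10 genes were chosen by name, with earlier results of these data known. They are 8 keratins of the basal and intermediate layers of the urothelium, a basal transcription factor and a ligand that basal cells secrete. All 10 of the 10 were measured, by 13 probes, among 26781 genes tested. The samples were the dissected bladder body of C57BL/6 mice, which holds muscle and stroma as well as urothelium, with no other treatment or allele named in the labels. Mature mice (MAT) were 12 months old and aged mice (AGED) were 27 to 30 months old, and 4 bladders of each age and sex were measured, each on 1 single-colour Agilent array.

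The urothelium is a layered epithelium. Its basal cells carry p63, the product of Trp63, with the type II keratin Krt5 and type I partners such as Krt14 and Krt15, while Krt13 is a type I keratin of the basal and intermediate layers. Krt8 and Krt18 form the type II and type I pair of simple epithelia and are found with Krt7 and Krt19 through to the umbrella cells at the surface. Shh is secreted by basal cells and acts through Ptch1 and the Gli factors of the stroma beneath.

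By the RefSeq gene order of GRCm38.p6, used here for names and order alone, the type I genes Krt13, Krt15 and Krt19 are immediate protein-coding neighbours on chromosome 11, with 1 such gene between Krt19 and Krt14. On chromosome 15, Krt8 and Krt18 are immediate neighbours, although Krt18 is a type I keratin. Trp63 is on chromosome 16 and Shh on chromosome 5. RefSeq promoter windows, which run from 250 bases before to 50 bases after an annotated start, were listed for 6 of the 10 genes (7 windows, with 2 for Krt13) and not for Krt15, Krt19, Trp63 or Shh. Windows of Krt13, the gene with the smallest unadjusted p in females, and of the neighbouring partners Krt8 and Krt18 are shown 5′ to 3′ on the strand of the gene. Capitals mark matches on either strand to the 4 motifs whose letters are given after the sequences.
Krt13, first start, GRCm38.p6 chr11:100121517-100121816, minus strand: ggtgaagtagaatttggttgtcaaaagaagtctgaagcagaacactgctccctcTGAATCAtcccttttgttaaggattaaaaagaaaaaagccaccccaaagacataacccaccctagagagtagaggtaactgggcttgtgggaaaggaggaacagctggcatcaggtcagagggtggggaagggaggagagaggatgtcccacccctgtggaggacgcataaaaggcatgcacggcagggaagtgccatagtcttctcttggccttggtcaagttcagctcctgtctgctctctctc
Krt13, second start, GRCm38.p6 chr11:100120528-100120827, minus strand: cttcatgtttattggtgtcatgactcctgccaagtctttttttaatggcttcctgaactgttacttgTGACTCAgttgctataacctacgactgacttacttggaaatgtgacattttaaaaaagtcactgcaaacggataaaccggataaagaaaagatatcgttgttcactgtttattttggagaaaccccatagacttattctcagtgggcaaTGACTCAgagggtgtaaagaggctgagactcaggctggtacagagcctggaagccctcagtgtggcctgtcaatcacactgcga
Krt8, GRCm38.p6 chr15:102004293-102004592, minus strand: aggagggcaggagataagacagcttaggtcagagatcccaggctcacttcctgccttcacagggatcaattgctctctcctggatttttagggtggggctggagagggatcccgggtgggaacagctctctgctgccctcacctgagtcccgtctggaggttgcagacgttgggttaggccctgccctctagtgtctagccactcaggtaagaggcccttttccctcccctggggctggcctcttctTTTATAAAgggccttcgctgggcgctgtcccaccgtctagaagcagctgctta
Krt18, GRCm38.p6 chr15:102027966-102028265, plus strand: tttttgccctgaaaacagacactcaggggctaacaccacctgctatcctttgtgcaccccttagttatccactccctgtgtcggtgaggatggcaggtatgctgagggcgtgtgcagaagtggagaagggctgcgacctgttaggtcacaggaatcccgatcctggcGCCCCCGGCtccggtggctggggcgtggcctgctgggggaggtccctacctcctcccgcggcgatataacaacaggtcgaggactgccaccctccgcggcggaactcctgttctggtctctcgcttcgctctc

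Both Krt13 windows hold the AP-1 motif, searched as TGANTCA, beginning 196 bases before the first start and 183 and 34 bases before the second. It was in 7.81% of all 32851 windows of this length. In the Krt8 window the TATA box, searched as TATAAA, matches on both strands in 1 overlapping run that begins 3 bases before the start, and 13.6% of all windows held it. The Krt18 window holds 1 match to the AP-2 motif, searched as GCCNNNGGC, which begins 83 bases before the start and was in 16.6% of all windows. Among the windows not shown, that of Krt7 had 4 matches to the GC box, searched as GGGCGG and held by 35.7% of all windows, and 2 to the AP-2 motif, 1 of which overlaps a GC box. Those of Krt5 and Krt14 had no match to the 4 motifs. A match is a description of the letters, and binding was not measured.

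All 13 probes were well above background on 16 of 16 arrays. Levels are given for each gene as log2 of the processed signal less the 75th percentile of its array, so that a value of 1 is a signal at double that percentile, and no level of 1 gene was set against that of another. Changes are AGED less MAT on the log2 scale, with standard errors, and intervals are 95% intervals. The direction follows the labels, and by the labels Chil3 was higher on every AGED array than on every MAT array in both sexes, whereas the study's own table lists that gene among those that fell. Age and position cannot be told apart, because MAT samples were in row 1 and AGED samples in row 2 of each slide, and sex and slide cannot be told apart either, with females on slide 1 and males on slide 2. The age contrasts were within a slide. In bulk tissue, fewer cells of a type and less RNA per cell cannot be told apart.

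One step of the scanner software bears on the results in both sexes. The processed signal is the background-subtracted signal times a factor that the software sets across the array. Among probes with a background-subtracted signal over 500, the 95th percentile of this factor over its 5th was 1.11 to 1.26 on the 8 female arrays, 1.21 to 1.99 on the 4 MAT male arrays and 2.22 to 2.69 on the 4 AGED male arrays. Some values without this step (without the detrending) are given beside the processed ones, and were added after the processed values were seen. They differ by more than this step, because the scale of each array was also taken anew. A background-subtracted signal that is not positive has no log2 value, so the probes behind that scale can differ too. In that setting 26773 genes were fitted in males and 26777 in females, with median age changes of -0.11 and -0.14. The part of the scale in these values was not tested.

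Over the 10 genes, every fitted age change was above 0 in both sexes, and none passed the test, which was limma with a Benjamini-Hochberg adjusted p under 0.05 together with a 2-fold limit. In males 0 of 10 were called, beside 0.851% of all genes tested, and 1 of 10 had an unadjusted p under 0.05 in the direction of AGED, beside 7.86% of all genes. In females 0 of 10 were called, beside 0.19% (51 genes, a count that leaving out 1 array moved to between 1 and 120), and 2 of 10 had an unadjusted p under 0.05 in that direction, beside 4.61%. The median change was 0.22 in males and 0.27 in females, beside medians over all genes of 0.0015 and -0.0063. Leaving out 1 array gave medians of 0.15 to 0.34 in males, the highest without MAT male 2, and of 0.19 to 0.38 in females, with 9 or 10 changes above 0 in males and 7 to 10 in females. Among the brightest 5% of genes, a class that holds 4 of the 10 here, the median changes were 0.046 in males and 0.071 in females, with 58.1% and 70.0% of that class above 0. Without the detrending, 9 of 10 changes were above 0 in males (not Krt8) and 7 of 10 in females (not Krt5, Trp63 or Shh), with medians of 0.17 and 0.12 where all genes had medians of -0.11 and -0.14, and 0 of 10 had an unadjusted p under 0.05 in either sex.

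The arrays of AGED and MAT did not overlap, with AGED higher, for 1 of 10 genes in males (Krt19), beside 3.91% of all genes. They did not overlap for 1 of 10 in females (Krt8), beside 5.04%. AGED was lower without overlap for 0 of 10 genes in each sex, beside 1047 of 26781 genes in males and 1549 in females. Without the detrending, groups overlapped for all 10 genes in both sexes on the tested probe of each gene.

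**Figure D1:**
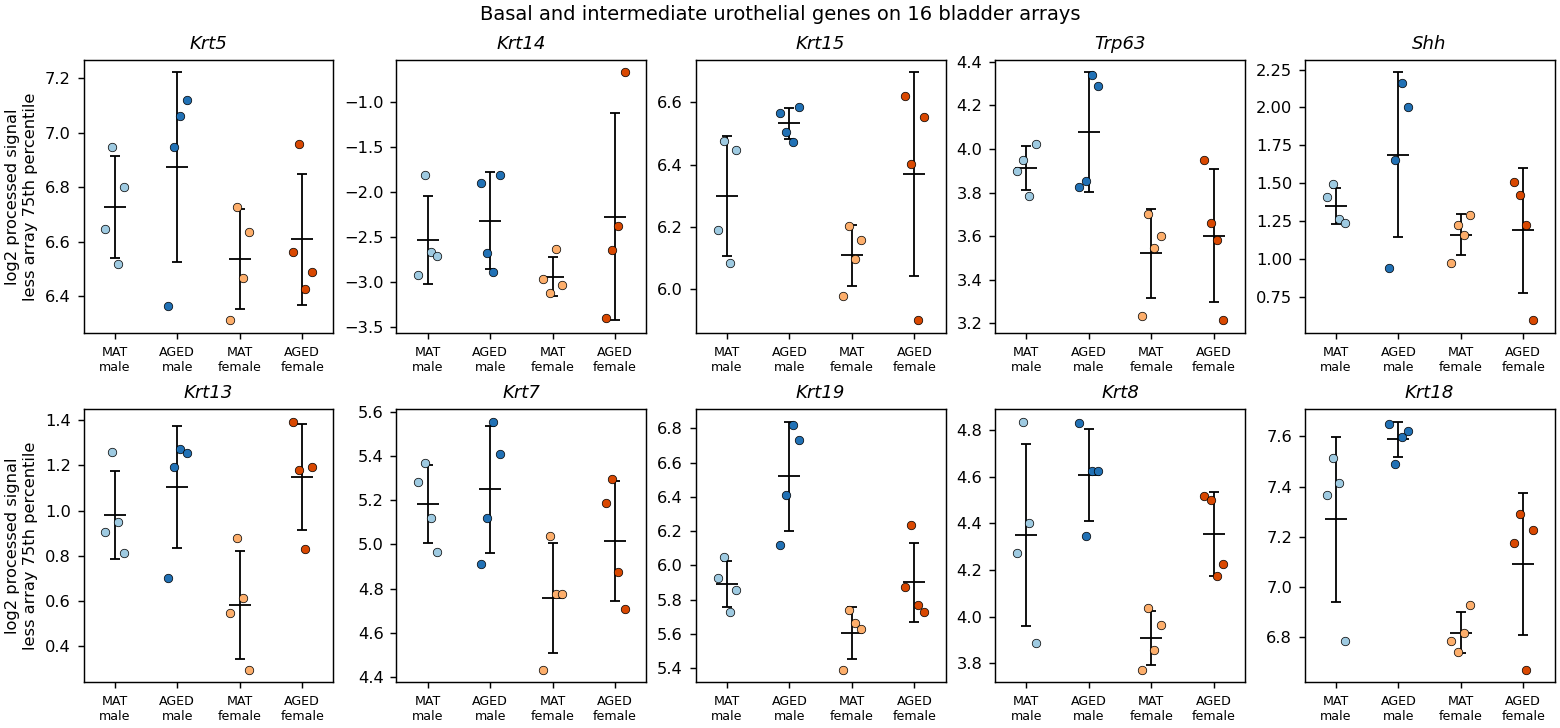
Each panel plots 1 gene on 16 arrays, with log2 processed signal less the 75th percentile of the array on the vertical axis and the 4 groups along the horizontal axis. Points are arrays and bars are the group mean ± SD (n = 4); AGED male points of Krt19 (6.12 to 6.82) lie above all MAT male points (5.73 to 6.05), and Krt14 has 1 AGED female point at -0.67, far above the other AGED females.

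Krt5, the type II keratin that defines basal cells, had levels of 6.65, 6.95, 6.52 and 6.80 in MAT males and 6.36, 6.95, 7.06 and 7.12 in AGED males. Its levels were 6.31, 6.73, 6.47 and 6.64 in MAT females and 6.56, 6.96, 6.43 and 6.49 in AGED females. The groups overlapped in both sexes, and AGED male 1 was the lowest male array while AGED males 3 and 4 were the highest. The change was 0.14 ± 0.18 (SE, n = 4 per group; adjusted p = 0.717 by limma, 95% interval -0.24 to 0.52) in males and 0.07 ± 0.18 (adjusted p = 0.939 by limma, interval -0.31 to 0.45) in females. A second, dimmer Krt5 probe gave larger changes, of 0.47 ± 0.18 in males (adjusted p = 0.224 by limma over all probes) and 0.50 ± 0.18 in females (adjusted p = 0.388 by limma). On that probe AGED males read 1.51, 1.25, 1.46 and 1.74 against 0.94, 1.31, 0.91 and 0.93 in MAT males, so that 1 MAT array lay among the AGED ones. Its changes without the detrending were 0.40 and 0.41.

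Krt14, a type I partner of Krt5 that is restricted to a subset of basal cells, had levels of -2.92, -1.81, -2.66 and -2.71 in MAT males and -1.89, -2.67, -2.88 and -1.81 in AGED males. In MAT females it read -2.97, -3.12, -2.63 and -3.04, and in AGED females -3.40, -2.64, -2.38 and -0.67. AGED female 4 stood far above the other AGED females, whose levels reached both above and below those of MAT females. The fitted change of 0.67 ± 0.45 in females (adjusted p = 0.654 by limma, interval -0.29 to 1.62) had the widest interval of the 10 genes and was 0.13 without that array. In males the change was 0.21 ± 0.45 (adjusted p = 0.845 by limma, interval -0.75 to 1.17), and AGED male 1, with a factor of 1.47 where the other male arrays had 0.75 to 1.01, read -3.19 without the detrending, the second lowest of the males.

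Krt15, a type I keratin of basal cells, was measured at 6.19, 6.48, 6.08 and 6.45 in MAT males and at 6.57, 6.50, 6.47 and 6.58 in AGED males. AGED males lay close together (SD 0.05), and 1 of them was just under the highest MAT male. The change was 0.23 ± 0.15 in males (adjusted p = 0.459 by limma, interval -0.09 to 0.55, exact permutation p = 0.0571, two-sided). Female levels were 5.98, 6.203, 6.10 and 6.16 in MAT and 6.62, 6.40, 5.90 and 6.55 in AGED. Of the 4 AGED females, 3 were above every MAT female and AGED female 3 was below them all, with a change of 0.26 ± 0.15 (adjusted p = 0.576 by limma, interval -0.06 to 0.58).

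Trp63, which encodes the transcription factor p63 that basal cells need, read 3.90, 3.95, 3.78 and 4.02 in MAT males and 3.83, 3.85, 4.34 and 4.29 in AGED males. It read 3.23, 3.70, 3.55 and 3.60 in MAT females and 3.95, 3.66, 3.58 and 3.21 in AGED females. The groups overlapped in both sexes, although AGED males 3 and 4 were above all other males. The changes were 0.16 ± 0.17 in males (adjusted p = 0.661 by limma, interval -0.20 to 0.53) and 0.08 ± 0.17 in females (adjusted p = 0.925 by limma, interval -0.28 to 0.44). A second probe, designed to another Trp63 transcript, changed by 0.41 ± 0.18 in males (adjusted p = 0.281 by limma over all probes) and -0.14 ± 0.18 in females (adjusted p = 0.866). The male direction of that probe turned without the detrending, to -0.67 ± 0.22 (adjusted p = 0.0816 by limma), with every AGED male below every MAT male. The factor for that probe was 1.47 to 2.44 on AGED male arrays and 0.79 to 1.20 on MAT male arrays, and which of the values is nearer to the RNA level was not tested.

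Shh, the hedgehog ligand of basal cells, had levels of 1.41, 1.49, 1.27 and 1.24 in MAT males and 0.94, 1.65, 2.16 and 2.001 in AGED males. Of the 4 AGED males, 3 were above every MAT male and AGED male 1 was below them all. The change was 0.34 ± 0.24 in males (adjusted p = 0.506 by limma, interval -0.17 to 0.85). In females, MAT read 0.97, 1.23, 1.16 and 1.29 and AGED read 1.51, 1.42, 1.23 and 0.59. These groups overlapped with AGED female 4 lowest, and the change was 0.03 ± 0.24 (adjusted p = 0.985 by limma, interval -0.48 to 0.54).

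Krt13 had, in females, the smallest unadjusted p of the 10 genes. Its levels were 0.55, 0.88, 0.61 and 0.30 in MAT females and 1.39, 1.18, 0.83 and 1.19 in AGED females. Only AGED female 3, at 0.83, was under the highest MAT female, at 0.88. The change was 0.57 ± 0.17, a 1.48-fold difference that did not pass the test (limma p = 0.00487, adjusted p = 0.258, interval 0.20 to 0.93, exact permutation p = 0.0571, two-sided), and it was 0.44 ± 0.23 without the detrending. In males Krt13 read 0.90, 1.26, 0.95 and 0.81 in MAT and 0.70, 1.19, 1.27 and 1.25 in AGED, with AGED male 1 below all other males. The male change was 0.12 ± 0.17 (adjusted p = 0.753 by limma, interval -0.24 to 0.49). A second, dimmer Krt13 probe moved the same way in females (0.77 ± 0.34; adjusted p = 0.468 by limma) and had the opposite sign in males (-0.22 ± 0.34; adjusted p = 0.781). The test of the difference between the sexes gave -0.44 ± 0.24 for Krt13 (males less females; adjusted p = 0.586 by limma).

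Krt7, a type II keratin of simple and transitional epithelia, read 5.28, 5.37, 5.12 and 4.96 in MAT males and 4.91, 5.12, 5.56 and 5.41 in AGED males. Its female levels were 4.43, 5.04, 4.78 and 4.78 in MAT and 5.19, 5.29, 4.88 and 4.71 in AGED. The groups overlapped in both sexes, with changes of 0.07 ± 0.18 in males (adjusted p = 0.882 by limma, interval -0.32 to 0.45) and 0.26 ± 0.18 in females (adjusted p = 0.665 by limma, interval -0.12 to 0.64).

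Krt19, the type I keratin that lacks the usual tail domain, had the largest change among the 10 genes in males. MAT males read 5.93, 6.05, 5.73 and 5.86, and AGED males read 6.12, 6.41, 6.82 and 6.73. Each AGED male was above each MAT male. The change was 0.63 ± 0.16, or 1.55-fold (limma p = 0.00154, adjusted p = 0.0667, interval 0.28 to 0.98, exact permutation p = 0.0286, two-sided, the smallest that 4 against 4 arrays allow). Leaving out AGED male 1 brought the limma adjusted p to 0.0163 with the change (0.76) still under 2-fold, so the gene was not called.

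The factor for the Krt19 probe was 1.32, 1.43, 1.23 and 0.99 on the AGED male arrays and 0.97, 0.81, 0.95 and 0.93 on the MAT male arrays. Without the detrending, and with the scale taken anew, AGED males read 4.98, 5.38, 5.95 and 6.25 and MAT males 5.59, 5.92, 5.34 and 5.46. AGED males then held both the lowest and the 2 highest male values, and the change was 0.06 ± 0.23 (adjusted p = 0.903 by limma, interval -0.43 to 0.56). On that scale all genes had a median change of -0.11 in males. In females the Krt19 factor was 0.94 to 1.08. Female levels were 5.39, 5.74, 5.67 and 5.63 in MAT and 5.87, 6.23, 5.77 and 5.73 in AGED, with AGED female 4 just under the highest MAT female. The female change was 0.29 ± 0.16 (adjusted p = 0.561 by limma, interval -0.05 to 0.64, exact permutation p = 0.0571, two-sided).

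Krt8, the type II member of the simple-epithelium pair, read 3.77, 4.04, 3.86 and 3.96 in MAT females and 4.52, 4.50, 4.17 and 4.23 in AGED females. Every AGED female was above every MAT female. The change was 0.45 ± 0.18, or 1.36-fold (limma p = 0.0226, adjusted p = 0.396, interval 0.07 to 0.82, exact permutation p = 0.0286, two-sided), and 0.17 ± 0.38 without the detrending, where the female groups overlapped. In males Krt8 read 4.27, 4.84, 4.40 and 3.89 in MAT and 4.83, 4.35, 4.63 and 4.63 in AGED. These groups overlapped, with a change of 0.26 ± 0.18 (adjusted p = 0.488 by limma, interval -0.12 to 0.63). Its factor was 0.78, 0.77, 2.35 and 2.55 on the AGED male arrays and 1.77, 0.84, 0.95 and 0.98 on the MAT male arrays. This was the widest range of the 10 tested probes. Without the detrending the male change of Krt8 was -0.23 ± 0.38 (adjusted p = 0.774 by limma).

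Krt18, the type I partner of Krt8, read 7.37, 7.51, 7.41 and 6.78 in MAT males and 7.65, 7.49, 7.60 and 7.62 in AGED males. AGED males were close together and MAT male 4 was far below the other males. The change was 0.32 ± 0.16 (limma p = 0.0701, adjusted p = 0.349, interval -0.03 to 0.67, exact permutation p = 0.0571, two-sided), and 0.42 ± 0.23 without the detrending. Female levels were 6.79, 6.74, 6.81 and 6.93 in MAT and 7.18, 7.29, 6.67 and 7.23 in AGED. AGED female 3 was below all MAT females and the other 3 were above them, with a change of 0.27 ± 0.16 (adjusted p = 0.603 by limma, interval -0.08 to 0.62).

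**Figure D2:**
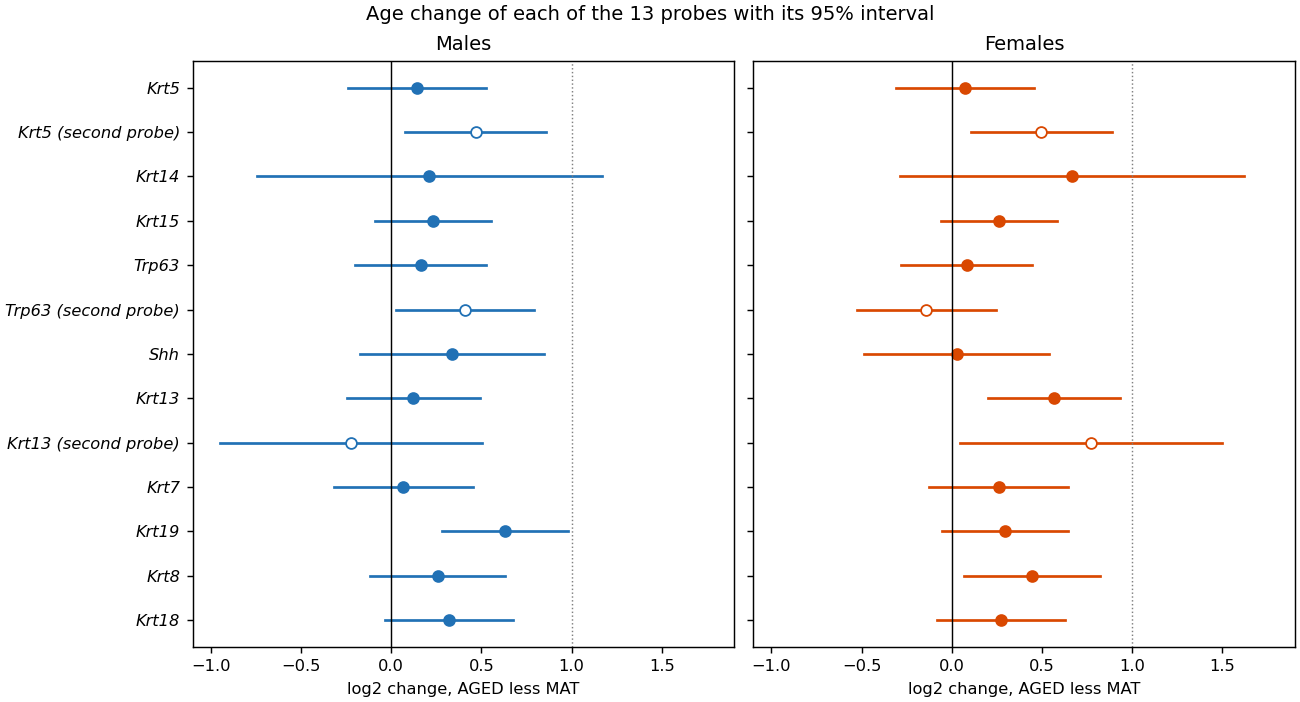
Each row is a probe, with the log2 change of AGED less MAT on the horizontal axis, males on the left and females on the right. Points are fitted changes (filled for the 10 tested probes, open for second probes), lines are 95% intervals from limma over all probes and the dotted line marks 2-fold; the Krt19 interval in males and those of Krt13 and Krt8 in females lie above 0, and of the second probes those of Krt5 in both sexes, Trp63 in males and Krt13 in females do so too.

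**Figure D3:**
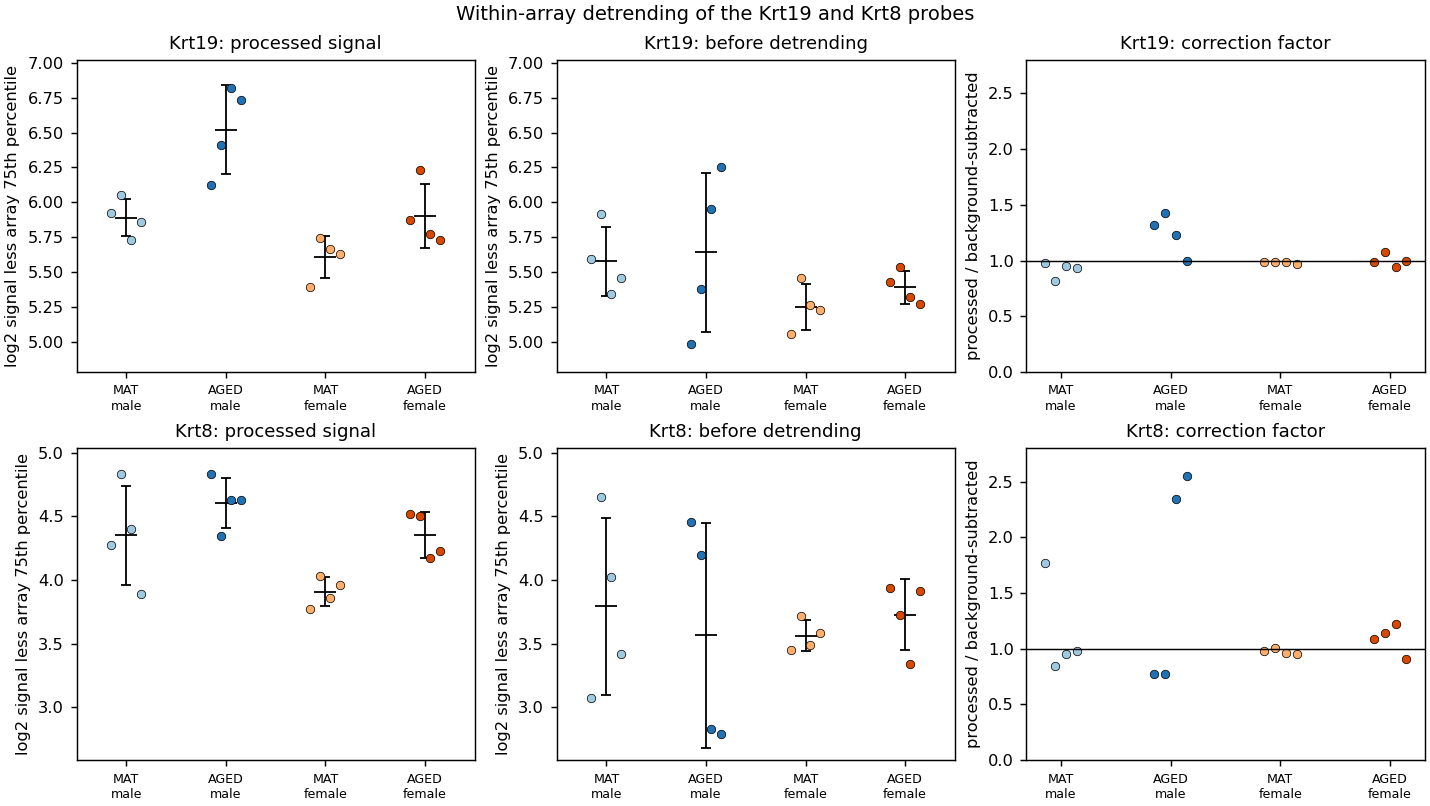
For Krt19 (top) and Krt8 (bottom), the left and middle panels plot log2 signal less the array's 75th percentile with and without the detrending, points being arrays and bars the mean ± SD (n = 4), and the right panels plot the factor between the signals. The Krt19 factor was 0.99 to 1.43 on AGED male arrays and 0.81 to 0.97 on MAT male arrays, and the Krt8 factor reached 2.55.

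The difference between the age changes of the sexes passed the test for 0 of 10 genes, beside 0.149% of all genes tested, and 0 of 10 had an unadjusted p under 0.05 for it, beside 9.87% of all genes. It ran from -0.46 for Krt14 (95% interval -1.81 to 0.90) to 0.34 for Krt19 (-0.16 to 0.83).

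MAT females had the lowest mean for 10 of 10 genes, beside 28.6% of all genes, and AGED males the highest for 8 of 10, beside 35.4%, the others being Krt13 and Krt14 with the highest mean in AGED females. Without the detrending MAT females were lowest for 7 of 10, beside 13.9% of all genes, with AGED females lowest for Krt5, Trp63 and Shh. AGED males were then highest for 8 of 10, beside 27.4%, with MAT males highest for Krt8 and AGED females for Krt14. Between MAT males and MAT females 0 of 10 were called, beside 0.164% of all genes, with males above females by 0.19 to 0.45. Of these, 5 of 10 had an unadjusted p under 0.05, beside 9.52% of all genes with such a p and males higher, and the smallest was that of Krt18 (0.45 ± 0.16; adjusted p = 0.237 by limma). The count of 5 was 0 without the detrending or without MAT male 2, 1 with quantile normalization or without MAT female 1, and 2 with the median of each array as the scale. Between AGED males and AGED females 0 of 10 were called, beside 3.11% of all genes, and 3 of 10 had an unadjusted p under 0.05 with males higher, beside 16.8%. Krt19 was 0.62 ± 0.16 higher in AGED males, with an adjusted p of 0.0288 by limma and under 2-fold, and 0.25 ± 0.23 higher without the detrending (adjusted p = 0.510). In the 4 pairs of groups that were tested, none of the 10 genes was called, and MAT males were not tested against AGED females. Over all genes the median male less female difference was 0.08 in MAT and 0.09 in AGED. Among the brightest 5% of genes it was 0.20 in MAT, with 89.0% of them above 0, and 0.18 in AGED, with 74.8% above 0.

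Within groups the 10 genes varied in part together. Deviations of each array from its group mean gave Pearson correlations over 16 arrays from -0.59 to 0.91 between pairs of genes, with a median of 0.34 over the pairs. Krt5 and Krt19 (0.91), Krt7 and Krt19 (0.89), Krt7 and Shh (0.84), and Trp63 and Shh (0.83) were the closest pairs. The partners Krt8 and Krt18 had 0.74, while the partners Krt5 and Krt14 had -0.16. Krt14 was apart from the rest, with -0.57 against Trp63 and -0.59 against Shh. The arrays share their slide, their 75th percentile and their factor, and these values are a description.

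**Figure D4:**
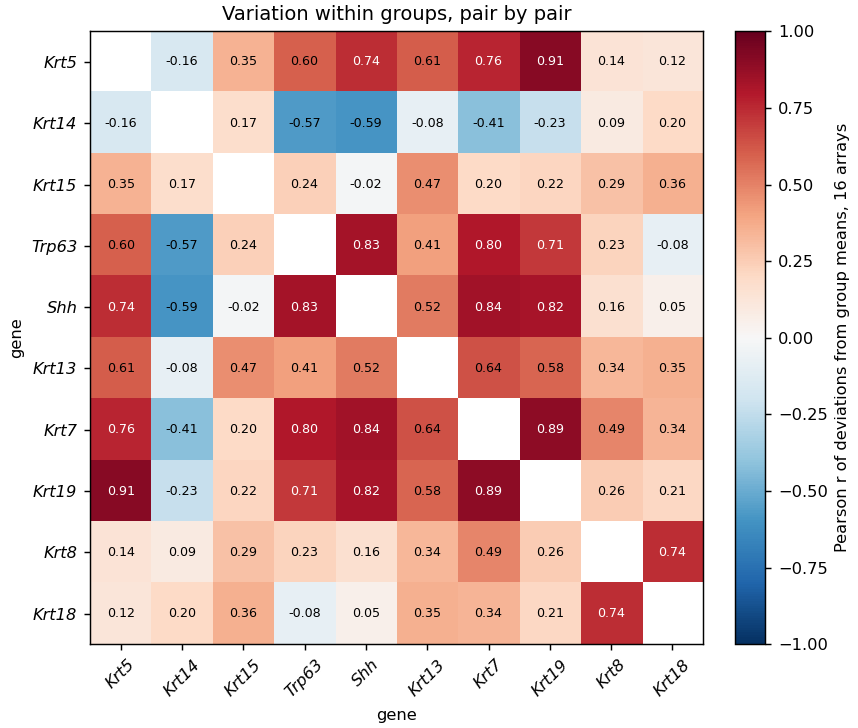
Both axes list the 10 genes, and each cell gives the Pearson correlation of deviations from group means over 16 arrays, coloured from blue (-1) to red (1). The highest value is 0.91 for Krt5 and Krt19, and the Krt14 row holds the lowest values, down to -0.59.

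The mean of the 10 genes on an array deviated from its group by -0.19 on AGED male 1 and AGED female 3 and by 0.26 on MAT male 2. These deviations had a correlation of 0.70 with those of the 16 umbrella cell genes, 0.68 with those of the 25 other keratins tested, 0.67 with those of the 16 hemidesmosome and desmosome genes and 0.57 with those of 11 other epithelial genes. Those below -0.5 were -0.56 with the 9 T and B cell genes, -0.54 with the 5 endothelial genes and -0.75 with Spink1. Spink1 was the 1 gene tested of the male accessory gland list, and it was dim and lower in males than in females. Its mean level was -5.12 in MAT males, -5.40 in AGED males, -4.27 in MAT females and -4.33 in AGED females. The genes with a symbol whose deviations were most like those of the 10 were Gm10639 (Pearson 0.91 over 16 arrays), H3c4 (0.90), Wfdc15b (0.90), Resf1 (0.89), Klf13 (0.88), G6pc3 (0.88), Htatip2 (0.88), Il6ra (0.88), Ankrd13a (0.87) and Slc22a13 (0.87). None of these 10 was called with age in either sex (fitted changes of -0.24 to 0.49).

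Related lists gave the setting of these values. Umbrella cell genes, such as the uroplakins of the surface plaque, were called for 0 of 16 in each sex, with median changes of -0.05 in males and 0.04 in females. Upk1a, with the brightest probe of that list, changed by -0.08 ± 0.15 in males and 0.12 ± 0.15 in females, and Upk2 by -0.45 ± 0.18 in males (adjusted p = 0.219 by limma) with every AGED male below every MAT male. Of the genes that anchor basal cells to their matrix and to each other, 0 of 16 tested (of 18 listed) were called. Their medians were 0.10 in males and 0.05 in females. Changes ran from -0.60 to 0.56 in males, with 10 of 16 above 0, and from -0.51 to 0.39 in females, with 8 of 16 above 0. Among these, the integrin gene Itga6 changed by 0.37 ± 0.15 in males (adjusted p = 0.234 by limma) and 0.39 ± 0.15 in females (adjusted p = 0.382), and without the detrending by -0.16 ± 0.19 in males and 0.22 ± 0.19 in females.

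A list of 11 genes of epithelial adhesion and identity, such as Cdh1 and Epcam, had median changes of -0.11 in males and 0.23 in females, where 8 of 11 changes were above 0, and 0 of 11 were called in either sex. The tight junction gene Cldn7, with the brightest probe of that list, changed by 0.44 ± 0.18 in females (adjusted p = 0.417 by limma), and Cldn7 and Cldn4 were higher on every AGED female array than on every MAT female array. Without the detrending Sfn, which encodes a 14-3-3 protein of epithelia, was called in males (-1.59 ± 0.35; adjusted p = 0.0096 by limma, against -0.32 ± 0.27 in the processed signal).

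Genes of the hedgehog pathway, beyond the ligand Shh, were called for 0 of 15 in each sex, with medians of -0.24 in males and -0.17 in females. The receptor gene Ptch1 changed by -0.41 ± 0.18 in males (adjusted p = 0.291 by limma) and -0.39 ± 0.18 in females (adjusted p = 0.481), and the inhibitor gene Hhip by -0.64 ± 0.25 (adjusted p = 0.217) and -0.59 ± 0.23 (adjusted p = 0.394). The stromal signal gene Bmp4 changed by -0.68 ± 0.18 in females (adjusted p = 0.171 by limma), with every AGED female below every MAT female. Of 4 such stromal genes, 0 were called in either sex, and 2 of 4 changes were above 0 in each. The 4 changes ran from -0.26 to 0.23 in males and from -0.68 to 0.39 in females, with a female median of -0.12. The transcription factor gene Gli1 changed by 0.0046 ± 0.14 in males and 0.24 ± 0.14 in females. The counts of 0 in males for the umbrella cell and hedgehog pathway lists did not hold without the detrending, where 1791 of all genes tested were called. Klf5 (-1.19 ± 0.31) and Ovol1 (-2.24 ± 0.66) of the umbrella cell list then passed in males. So did Gas1 (-1.28 ± 0.24), Dhh (-1.54 ± 0.28) and Hhat (-1.23 ± 0.17) of the hedgehog list, while 0 of the 4 stromal genes did. In the processed signal these 5 changes were -0.54, -1.42, -0.48, -0.15 and -0.19 in the same order. These genes, like Sfn, are named because of these calls, after their values were seen. Without the detrending the list medians in males were -0.33 for umbrella cell genes, -0.08 for the anchoring genes and 0.0038 for the epithelial genes. They were -0.35 for the hedgehog pathway and -0.76 for its stromal targets (-0.010 in the processed signal). In females they were -0.07, -0.10, 0.11, -0.29 and -0.24 in the same order. All genes had medians of -0.11 in males and -0.14 in females in that setting.

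Of 45 other keratin genes on the array, 25 were tested, and Krt10, a type I keratin of cornifying cells, was the 1 that was called. In males its change was -1.34 ± 0.21 (SE; adjusted p = 0.00531 by limma), from 0.56 ± 0.13 (SD, n = 4) in MAT to -0.78 ± 0.55 in AGED, and in females 0.12 ± 0.21. Without the detrending the male change of Krt10 was -2.20 ± 0.21. The 25 had medians of -0.05 in males and 0.13 in females, and without the detrending of -0.12 and 0.011, beside -0.11 and -0.14 over all genes. Krt12 in males, and Krt16 and Krt222 in females, were lower on every AGED array than on every MAT array, and Krt28 was higher in females, with none of them called. Of the squamous and stress-induced genes, 11 of 14 were tested and Krt10 was the 1 that was called.

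**Figure D5:**
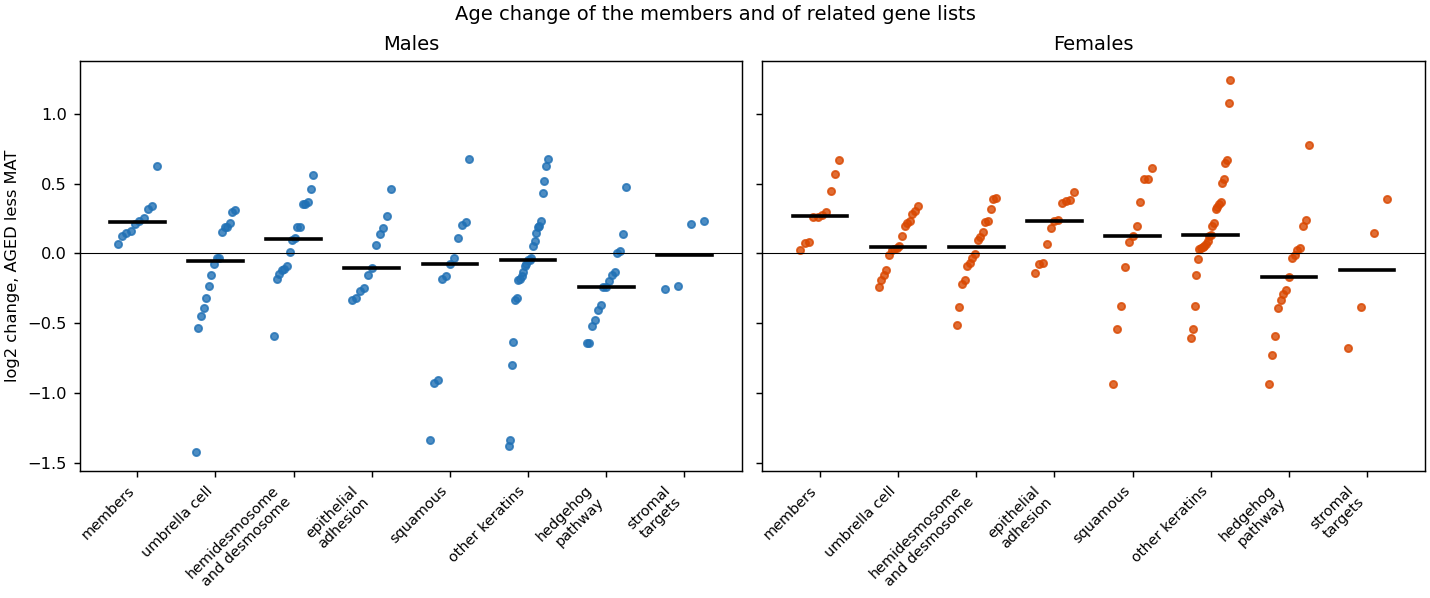
The vertical axis is the log2 change of AGED less MAT for each tested gene of a list, in males (left) and females (right), and bars are medians. The 10 genes described here (members) lie above 0 in both panels, with medians of 0.22 and 0.27, while umbrella cell genes have medians of -0.05 and 0.04, epithelial adhesion and identity genes -0.11 and 0.23, and hedgehog pathway genes -0.24 and -0.17.

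The lists for other tissue in the samples moved with age as follows. Smooth muscle genes (10 tested) had medians of 0.03 in males and -0.01 in females, fibroblast genes (8) -0.38 and -0.09, macrophage genes (7) 0.38 and 0.42, T and B cell genes (9) 0.52 and -0.21, endothelial genes (5) -0.06 and -0.09, and mesothelial genes (4) -0.62 and 0.63. None of these genes was called in either sex, although without the detrending the macrophage gene Mrc1 was called in males (-1.51 ± 0.27, against -0.47 ± 0.20 in the processed signal). Without it the medians were -0.18 and -0.14 for smooth muscle, -0.46 and -0.24 for fibroblast and 0.13 and 0.33 for macrophage genes. They were 0.74 and -0.29 for T and B cell, -0.16 and -0.21 for endothelial and -0.64 and 0.50 for mesothelial genes. All genes had medians of -0.11 and -0.14 in that setting. The mean level of the 10 smooth muscle genes per array was 6.21 to 6.32 in MAT males, 6.00 to 6.44 in AGED males, 6.06 to 6.33 in MAT females and 5.84 to 6.38 in AGED females. That of the 8 fibroblast genes was 4.73 to 4.89, 4.05 to 4.88, 4.98 to 5.08 and 4.65 to 5.22 in the same order. The mean of the mesothelial genes ran from -2.02 to -0.19 over AGED males and from -3.11 to -0.03 over AGED females, and that of the T and B cell genes from -2.83 to -0.49 and from -2.46 to -0.19. Over MAT males these means ran from -0.77 to -0.21 and from -3.41 to -1.42, and over MAT females from -2.38 to -1.78 and from -1.03 to -0.11. The part of these tissues in the values of the 10 genes was not tested. Of 10 male accessory gland genes, 1 passed the filter on dim probes.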

How the data were processed

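The authors labelled bladder RNA with Cy3, hybridised it to Agilent SurePrint G3 Mouse 8 x 60K arrays and extracted the scans with Feature Extraction, version 10.7.3.1 per the file headers and 9.1 in the submitters' processing notes. They deposited intensity values per spot, from the raw median and its local background to the background-subtracted signal and the processed signal, which is also detrended within the array, together with flags. The authors deposited a log2 table as well. Checked against the scanner values, it holds log2 processed signal less 1 value per array, with each probe centred over the arrays, and was used as an alternative.

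Here log2 of the processed intensity less the array's 75th percentile was used. Control spots and outlier-flagged spots (399 probe values) were left out, no spot was saturated, and spots of a probe were averaged. Probes were named by accession through RefSeq tables of GRCm38.p6 (26576 of 55681 probes), and all 10 symbols matched. Probes well above background on at least 4 of 16 arrays were kept (36974), and the brightest kept probe of each gene was tested, 26781 genes in all. Fits used limma 3.58.1 in R 4.3.3, 1 model of 4 group means with 12 residual degrees of freedom; a call needed an adjusted p under 0.05 and 2-fold, without the fold limit for the difference between sexes. Exact permutation tests were two-sided. The number of arrays limits the precision. The procedure was tested on simulated data. The 10 genes and the lists were chosen with earlier results of these data known. Named genes were the 10 with every probe, members of the lists that were called or among the brightest, other keratins called or with groups apart, and the 10 genes most like their mean; few of the brightest list genes are printed. Alternatives were other scalings, backgrounds, filters, probe rules, tests and fits, and leaving out each array. Sequences were read with Python 3.11.15.

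Replicate numbers did not pair the samples: deviations of same-numbered MAT and AGED arrays had correlations of -0.15 to 0.07.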

Additional observations from a re-analysis of the deposited data

Results flagged for a closer look

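Of 40 groups of 4 arrays (10 genes in 4 groups), 1 held an array that stood apart by Dixon's test at the 95% level, where chance marks about 1 in 20. Krt13 in AGED males was lowest on AGED male 1, at 0.70, with the nearest array at 1.19, a gap of 0.860 of the range of that group. That array also had the lowest Krt5, Krt7, Krt19, Trp63 and Shh levels of the AGED males. It had the highest Krt8 (4.83) and Krt18 (7.65) levels of that group, and its Krt14 and Krt15 levels lay between those of the others. Of its probes, 52.4% were well above background, beside 58.7% to 61.3% on the other AGED male arrays. The part of that difference in the Krt13 level was not tested.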

How the results depend on the processing

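With every alternative that was run, 0 of 10 genes were called with age in males and in females, in the difference between the sexes, and between MAT males and MAT females. In males the largest change under any alternative was 0.76 (Krt19), under 2-fold. No call with age was therefore possible in males wherever that limit was kept, and the count there does not measure stability. Between AGED males and AGED females 1 gene (Krt19) was called when the fold limit was dropped. Without the detrending, which was added after the data were seen, the change of Krt8 in males was -0.23 and those of Krt5, Trp63 and Shh in females were -0.00043, -0.048 and -0.090, and the median over the 10 genes in females was 0.12. With normexp the change of Krt8 in males was -0.076, and that of Krt19 in males was 0.20 (adjusted p = 0.574 by limma). With quantile normalization that of Krt5 in females was -0.0037, and with the mean of a gene's probes those of Krt13 in males and Trp63 in females were -0.050 and -0.029. The basal genes alone had a median of 0.082 in females. Leaving out 1 array gave a range of -0.036 to 0.18 for Krt7 in males, and in females of -0.044 to 0.14 for Krt5, -0.035 to 0.21 for Trp63 and -0.080 to 0.23 for Shh. Changes that kept their sign also moved with 1 array, from 0.062 to 0.31 for Krt5 and 0.18 to 0.59 for Shh in males, and from 0.13 to 1.04 for Krt14 in females. The cause of these reversals was not tested. Without the detrending the scale of each array was also taken anew, and all genes had median changes of -0.11 in males and -0.14 in females. The factor on AGED and MAT female arrays was 0.95 to 1.03 and 1.01 to 1.11 for Krt5. It was 0.94 to 1.05 and 0.97 to 1.01 for Trp63, and 1.01 to 1.02 and 1.01 to 1.03 for Shh. Over single genes, 355 of 360 values in males and 348 of 360 in females kept their direction and their side of the threshold. Many alternatives, such as another test or leaving out an array of the other sex, could not move the fitted change. Its direction was then fixed, so these counts do not measure how far it depends on the processing. The adjusted p of Krt19 in males ran from 0.0163 to 0.903. By limma it was 0.0445 with array weights, 0.0458 with a variance trend and 0.0497 with probes well above background on 16 arrays.

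Over all genes, the replicate block gave 184 calls in males and 3 in females, against 228 and 51 without it, and 0 of 10 genes were called under either. Calls in males were 1791 without the detrending, 756 with normexp, 552 with no filter on dim probes and 11 with each sex fitted alone, and in females 33, 39, 18 and 99, and array weights gave 194 in females. The methods' t-test at 2-fold gave 496 and 394 unadjusted, and 0 in males and 1 in females after Benjamini-Hochberg adjustment. Normexp moved the median of all genes in males by 0.12. Leaving out 1 array gave 123 calls (without MAT male 3) to 377 (without AGED male 2) in males. In females it gave 1 without AGED female 2, MAT female 1 or MAT female 4, 7 without AGED female 4, 8 without MAT female 2, 17 without AGED female 1, 24 without MAT male 1, 25 without MAT female 3 or MAT male 3 and 120 without AGED male 1. Over the settings that leave out 1 array, 1 to 3 of the 10 genes in males and 1 to 4 in females had an unadjusted p under 0.05. With normexp these counts were 4 in males and 1 in females, and without the detrending 0 in each.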
